A study of Homo sapiens with 24 samples.

Results

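The 10 genes *APC*, *AXIN1*, *CSNK1A1*, *GSK3A*, *GSK3B*, *BTRC*, *BCL9*, *BCL9L*, *PYGO2* and *CTNNBIP1* were followed in HT29, HCT116 and SW480 cells with and without β-CATENIN. They were chosen by name, 10 of the 58051 gene identifiers in the files, and all 10 were found and tested in every comparison. These cell lines were established from human colorectal carcinomas. WT clones had kept *CTNNB1*, the gene of β-CATENIN, as in the parental line, and in HCT116 it carries a gain-of-function mutation. In KO clones an exon of both *CTNNB1* alleles had been deleted by CRISPR/Cas9, which shifts the reading frame. Each line and genotype comprised 2 clones grown from single sorted cells, and each clone gave a library in round A and another in round B, which makes 4 libraries per line and genotype and 24 in all. The WT clones were 11 and 40 for HT29, 4 and 6 for HCT116, and 4 and 5 for SW480. The KO clones were 28 and 38, 44 and 47, and 17 and 21, in the same order of lines. The sample titles name no further treatment. Clone and genotype are nested, and each arm has 2 clones, so the 4 libraries of an arm are not 4 independent edits. The main fits nevertheless took each library as a replicate. Their standard errors and p-values thus treat the 2 rounds of a clone as independent. Fits on clone means or with a clone effect are given as alternatives.

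Without a WNT signal, β-CATENIN is taken up by a destruction complex in the cytoplasm. *APC* and *AXIN1* encode its scaffolds. *CSNK1A1* (casein kinase 1α), *GSK3A* and *GSK3B* encode kinases that phosphorylate β-CATENIN, and *BTRC* encodes β-TrCP, the F-box protein that recognises the phosphorylated form and hands it to a ubiquitin ligase. β-CATENIN that escapes enters the nucleus and binds TCF/LEF factors on DNA. BCL9 and BCL9L tether it to PYGO2, a reader of histone methylation, whereas CTNNBIP1, also known as ICAT, binds β-CATENIN and blocks its contact with TCF/LEF factors. Colorectal cancers usually activate the pathway by truncating *APC*, as in HT29 and SW480, or by mutating the phosphorylated part of β-CATENIN, as in HCT116.

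Values are normalized counts, that is reads per gene divided by a size factor per library, with 22297049 to 29068378 reads per library. *CTNNB1* checked the labels, with at most 1312 in KO libraries and at least 5883 in WT libraries. The KO mean was 4.98% of the WT mean in HT29, 1.83% in HCT116 and 2.18% in SW480. Of 12 markers of colorectal epithelium, 6 to 10 had at least 10 normalized counts in every library of a line and genotype, and *CDX1* was under 10 in all of them. Fibroblast markers summed to 14.2 to 26.9 in HT29 WT and to 109 to 1212 in HT29 KO libraries, mostly from *LUM*, while *COL1A2*, *COL3A1*, *DCN* and *PDGFRB* stayed under 10 in both. In the other lines this sum was 213 to 564. The leukocyte gene *PTPRC* and the endothelial gene *CDH5* were under 10 in every library. The summed leukocyte markers reached 17538 to 31295 in HT29 through *LYZ*, and at most 43.0 in HCT116 and SW480.

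The HT29 library KO 38B stood apart. Over all tested genes the log2 difference between rounds had an SD of 0.93 in KO 38 and of 0.36 to 0.53 in the other clones. In KO 38 the median difference, B minus A, was 0.55 over the quartile of genes with the shortest exons and −0.38 over that with the longest. HT29 WT 11 had a smaller difference in the same direction, at 0.21 and −0.21. KO 28 of HT29 (−0.15 and 0.10) and every HCT116 clone went the other way, up to −0.23 and 0.20 in KO 47. Of the 10 members, 8 were lower in 38B than in 38A, and these have 5.78 to 17.9 kb of annotated exon. The 2 that were higher, *CTNNBIP1* with 3.34 kb and *PYGO2* with 3.66 kb, are the shortest of the set. Results on HT29 are therefore given with and without this library. By exon length, the median KO effect in HT29 was 0.13 over the shortest quartile of genes and −0.10 over the longest. The part of gene length in the results on HT29 was not tested.

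The 300 bases around a start site, 250 before and 50 after it, were searched for the TCF/LEF core CTTTGA and the GC box GGGCGG on both strands, because members moved in opposite directions in SW480. The RefSeq sequences used (GRCh38.p14) covered 8 of the 10 members, and the starts of *BTRC* and *BCL9L* were not analysed here. The starts of *CTNNBIP1*, *AXIN1* and *BCL9* are shown since these genes gave the clearest differences between genotypes or lines. Capitals mark GC boxes, and no base belonged to both motifs.
CTNNBIP1: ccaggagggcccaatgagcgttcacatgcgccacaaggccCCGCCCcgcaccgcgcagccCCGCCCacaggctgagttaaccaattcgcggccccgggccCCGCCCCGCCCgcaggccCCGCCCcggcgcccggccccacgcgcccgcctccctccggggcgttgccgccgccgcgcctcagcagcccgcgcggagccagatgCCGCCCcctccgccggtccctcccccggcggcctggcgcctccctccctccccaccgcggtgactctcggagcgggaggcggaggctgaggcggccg
AXIN1: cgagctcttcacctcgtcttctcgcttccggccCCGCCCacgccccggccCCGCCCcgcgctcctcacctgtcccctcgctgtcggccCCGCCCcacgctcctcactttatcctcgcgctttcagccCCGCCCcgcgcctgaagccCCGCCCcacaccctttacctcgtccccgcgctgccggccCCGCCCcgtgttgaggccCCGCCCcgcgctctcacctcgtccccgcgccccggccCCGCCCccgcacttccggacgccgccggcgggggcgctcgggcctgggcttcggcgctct
BCL9: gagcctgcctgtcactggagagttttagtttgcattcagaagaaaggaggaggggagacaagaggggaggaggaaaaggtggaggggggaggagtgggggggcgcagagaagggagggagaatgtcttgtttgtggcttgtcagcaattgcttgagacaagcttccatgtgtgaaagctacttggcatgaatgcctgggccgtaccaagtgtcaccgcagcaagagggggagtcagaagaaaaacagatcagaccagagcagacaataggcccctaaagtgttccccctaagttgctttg
They lie on GRCh38.p14 at chr1:9910220-9910519 (minus strand), chr16:352674-352973 (minus strand) and chr1:147541251-147541550 (plus strand), and are written 5′ to 3′ along the gene. None of them held the TCF/LEF core, which occurred in 12.92% of all 35116 such windows. Of the 10 windows of members it was found in 1, the second of *CSNK1A1*, from base 18 after the start. GC boxes numbered 6 in *CTNNBIP1*, 8 in *AXIN1* and 0 in *BCL9*, and 44.95% of all windows had at least 1. The GC content was 80.7%, 78.0% and 53.0% in these genes, against a median of 58.7% over all windows. These are matches of letters in short windows and say nothing about binding.

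Most calls were made in SW480. In its KO clones the antagonist *CTNNBIP1* was 4.88-fold and the coactivator *BCL9L* 2.40-fold the WT mean, *BCL9* and *BTRC* were higher as well, and *AXIN1* and *PYGO2* were lower. *APC* and the 3 kinase genes did not pass the test. With limma on log2(value + 1) and an adjusted p under 0.05, 4 of the 10 members rose and 2 fell. Of all 16325 genes tested in SW480, 26.1% rose and 22.1% fell, so calls were common among genes at large and the count says nothing particular to the members. The median log2 fold change was 0.02 over the members and −0.0042 over all tested genes. In these bulk libraries, a change per cell and a change in the share of cells that express a gene cannot be told apart. Cell type markers moved with genotype in SW480 as well. Of 7 tested epithelial markers 0 rose and 2 fell, *CDX2* by a log2 fold change of −3.49 (adjusted p = 3.8e-05) and *EPCAM* by −0.99 (adjusted p = 0.00388), while the summed list was 142504 to 197517 in WT and 152942 to 177137 in KO libraries. Of 3 tested fibroblast markers *COL1A2* fell (−5.77, adjusted p = 1.9e-06), with sums of 213 to 564 in WT and 236 to 285 in KO libraries. The single tested endothelial marker, *VWF*, rose (2.98, adjusted p = 5.3e-05), with sums of 9.65 to 27.4 and 116 to 234 and *CDH5* under 10. The leukocyte marker *LYZ* rose (2.66, adjusted p = 0.000176), with sums of the list of 16.5 to 27.4 and 25.4 to 43.0 and *PTPRC* under 10. By exon length, the median KO effect was −0.13 over the shortest quartile of genes and 0.05 over the longest. The part of the markers and of exon length in the results was not tested.

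*CTNNBIP1* (ENSG00000178585, chr1:9908334-9970394, minus strand, on GRCh37 as for all genes below) had 228 and 198 normalized counts in SW480 WT 4A and 4B, and 164 and 182 in WT 5A and 5B. KO 17 had 941 and 1045, and KO 21 had 898 and 880. Every KO library was thus well above every WT library, and the KO clones differed little from each other. The means were 193.0 ± 27.3 and 941.1 ± 73.8 (SD, n = 4), with a log2 fold change of 2.29 (standard error 0.11, adjusted p = 1.2e-07, limma). It was called in each of 22 alternative fits, with 2.14 to 2.43. A noncoding gene on the other strand shares 12.7% of its exon bases, so reads of *CTNNBIP1* may be missing there.

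*BCL9L* (ENSG00000186174, chr11:118764584-118796635, minus strand) had 1734 and 1817 in SW480 WT 4 and 2070 and 2142 in WT 5. KO 17 had 5899 and 5303, and KO 21 had 3443 and 3984. All KO libraries exceeded all WT libraries, but KO 17 exceeded KO 21 by more than either clone's rounds differed. The log2 fold change was 1.23 (standard error 0.16, adjusted p = 0.000137), with 1.53 for KO 17 and 0.94 for KO 21. An antisense neighbour, *CXCR5*, overlaps 36.3% of the exon bases of *BCL9L*. The library kit does not mark strand, so reads of *BCL9L* may be missing where the genes overlap. *CXCR5* itself was counted at no more than 2.14 in any library.

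The paralog *BCL9* (ENSG00000116128, chr1:147013271-147098017, plus strand) had 378, 367, 404 and 375 in SW480 WT 4A, 4B, 5A and 5B. It had 689 and 613 in KO 17 and 508 and 533 in KO 21. Here too the genotypes did not overlap and KO 17 was the higher clone. The log2 fold change was 0.61 (standard error 0.11, adjusted p = 0.000902). *PYGO2* (ENSG00000163348, chr1:154929502-154936329, minus strand), whose product docks on both proteins, had 937, 894, 946 and 963 in WT and 826, 744, 794 and 811 in KO libraries. This small difference left the genotypes apart, at a log2 fold change of −0.24 (standard error 0.07, adjusted p = 0.0153). It was not called in 4 of 22 alternatives, which were no filter, the mean of both rounds, the clone as a random effect, and leaving out WT 5. Its exons share 9.14% of their bases with *SHC1* on the same strand, where reads cannot be given to either gene alone.

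Of the scaffolds in SW480, *AXIN1* (ENSG00000103126, chr16:337440-402723, minus strand) had 1292 and 1248 in WT 4 and 1162 and 1183 in WT 5. KO 17 had 746 and 743, and KO 21 had 770 and 866. The KO libraries were all below the WT libraries, at 64.0% of the WT mean. The log2 fold change was −0.65 (standard error 0.08, adjusted p = 5.8e-05), and all 22 alternatives called it. *APC* (ENSG00000134982, chr5:112043215-112181936, plus strand) had 1216 to 1487 in WT and 1389 to 1593 in KO libraries. These ranges overlapped, at a log2 fold change of 0.08 (standard error 0.08, adjusted p = 0.429).

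*BTRC* (ENSG00000166167, chr10:103113790-103317078, plus strand) had 529, 562, 506 and 561 in SW480 WT and 690, 749, 652 and 699 in KO libraries. The KO libraries were higher without overlap, by a log2 fold change of 0.37 (standard error 0.08, adjusted p = 0.00294). This call was lost in 1 of 22 alternatives, with rounds averaged per clone (adjusted p = 0.0881). The kinases gave values near 0 on the same scale. *CSNK1A1* (ENSG00000113712, chr5:148872545-148931034, minus strand) was at −0.07 (standard error 0.08), *GSK3A* (ENSG00000105723, chr19:42730377-42746777, minus strand) at −0.05 (0.08) and *GSK3B* (ENSG00000082701, chr3:119540168-119813841, minus strand) at −0.04 (0.07). Their adjusted p-values were 0.495, 0.640 and 0.698. In SW480 the libraries of 4 members lay wholly above WT and those of 2 wholly below, as did 25.3% and 20.9% of all tested genes.

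**Figure D1:**
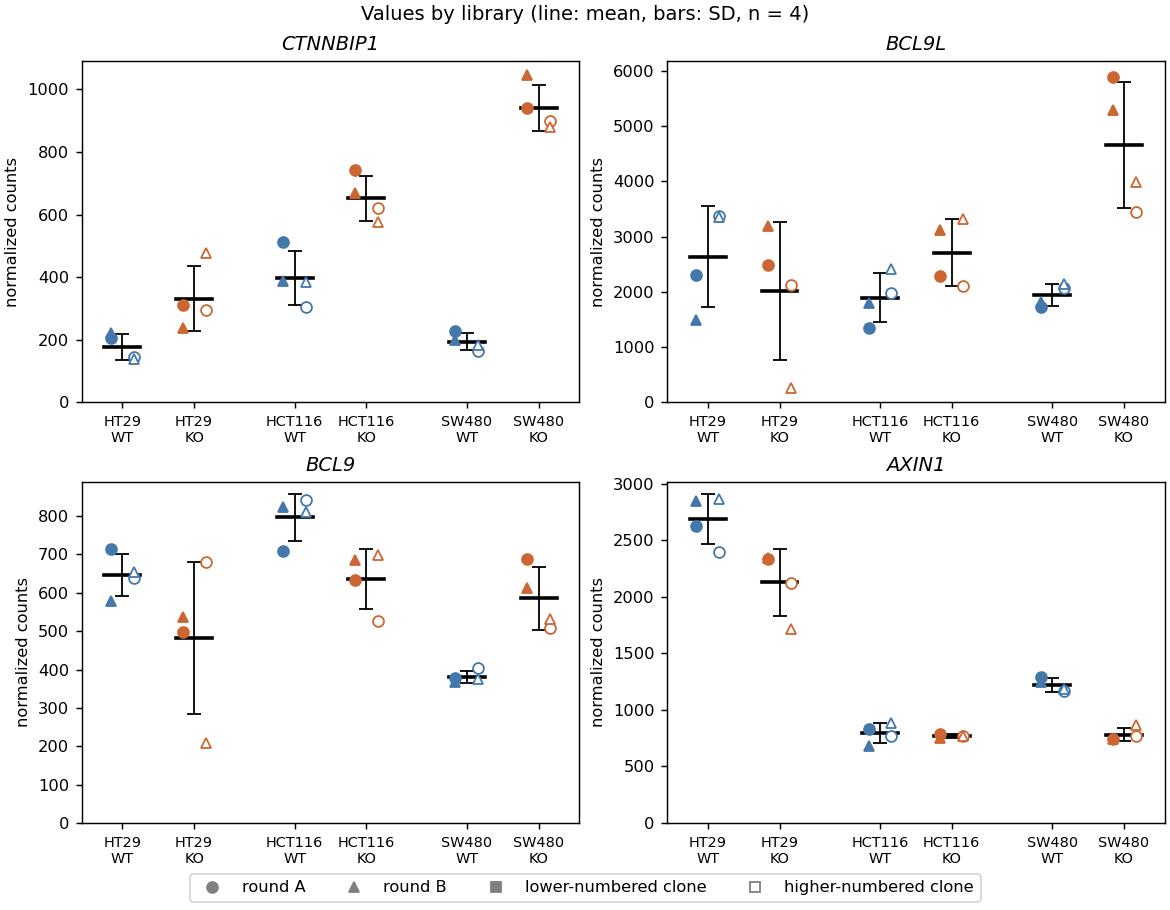
Normalized counts (linear axis from 0) of *CTNNBIP1*, *BCL9L*, *BCL9* and *AXIN1* in each of the 24 libraries, with circles for round A, triangles for round B, filled symbols for the lower-numbered clone and open symbols for the higher-numbered clone; lines and bars are the mean and SD of 4 libraries. *CTNNBIP1* KO libraries lie above WT libraries in all 3 lines, and the *BCL9L* value of 250 in HT29 KO 38B lies far below its partner of round A at 2126.

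In HCT116, *CTNNBIP1* alone was called, and it rose. WT 4 had 512 and 388 normalized counts and WT 6 had 306 and 384, against 744 and 669 in KO 44 and 622 and 576 in KO 47. The lowest KO library was above the highest WT library, and KO 44 was the higher KO clone. The KO mean was 164.2% of the WT mean, with a log2 fold change of 0.73 (standard error 0.16, adjusted p = 0.0125, limma). The call was lost without KO 44 (0.61, adjusted p = 0.0989), without WT 6 (0.54, adjusted p = 0.112) and with rounds averaged per clone (adjusted p = 0.125). Thus 1 of 10 members rose and 0 fell in HCT116, where 8.05% of 15404 tested genes rose and 5.93% fell. Unadjusted p-values under 0.05 were given by 3 members and by 4553 of the 15404 tested genes. edgeR called 1 member and 2200 genes in all, and DESeq2 called 2 members and 2961 genes in all. Epithelial markers moved with genotype in HCT116 too, since of 7 tested *CDH1* (1.17, adjusted p = 0.000197) and *EPCAM* (0.46, adjusted p = 0.00630) rose and *KRT20* (−5.78, adjusted p = 3.5e-06) and *CDX2* (−0.47, adjusted p = 0.0281) fell. Their sum was 131459 to 161232 in WT and 135938 to 194205 in KO libraries. Neither of the 2 tested fibroblast markers was called, and no endothelial or leukocyte marker passed the filter. The part of these markers in the rise of *CTNNBIP1* was not tested.

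*BCL9L* in HCT116 had 1351 and 1800 in WT 4, 1984 and 2423 in WT 6, 2287 and 3129 in KO 44, and 2110 and 3324 in KO 47. Both KO clones were higher on average, but WT 6B exceeded the round A libraries of both. In every clone round B was higher than round A. The log2 fold change was 0.53 (standard error 0.19, adjusted p = 0.0951). Rounds were taken as pairing the libraries in HCT116 on these data and not by design. With the round as a replicate block the standard error fell to 0.14 and the adjusted p was 0.0300.

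*BCL9* in HCT116 lay on the other side of 0 from its paralog. It had 708, 825, 843 and 811 in WT libraries and 633, 685, 527 and 698 in KO libraries, which did not overlap. The log2 fold change of −0.33 (standard error 0.12, adjusted p = 0.102) did not pass the test. Members with HCT116 KO libraries wholly above WT numbered 1 and wholly below numbered 1, *CTNNBIP1* and *BCL9*, against 10.9% and 9.61% of all tested genes. *AXIN1* in HCT116 had 677 to 883 in WT and 747 to 786 in KO libraries, with a log2 fold change of −0.04 (standard error 0.11). The remaining members lay between −0.31 for *APC* and 0.07 for *GSK3A*, and their ranges overlapped between genotypes. The median log2 fold change of the members was 0.01, against −0.01 over all genes.

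In HT29, 0 members passed the test with limma, while 2.08% of 14921 tested genes rose and 0.476% fell. A single member, *CTNNBIP1*, had an unadjusted p under 0.05, as had 2417 of the 14921 tested genes. edgeR called 0 members and 312 genes in all. DESeq2 called *CTNNBIP1* with an adjusted p of 0.0472, and 1229 genes in all. This gene had 205 and 222 in HT29 WT 11 and 145 and 138 in WT 40. KO 28 had 311 and 238, and KO 38 had 296 and 478. The KO libraries were again all above the WT libraries, with the highest value in 38B. The log2 fold change was 0.88 (standard error 0.27, adjusted p = 0.147), and 0.68 (standard error 0.23, adjusted p = 0.185) without 38B. In HT29 the fibroblast marker *LUM* rose (8.35, adjusted p = 0.00196), as did 4 of 10 tested epithelial markers, *KRT19*, *KRT20*, *CEACAM5* and *LGALS4*. The epithelial sums were 325984 to 466951 in WT and 493821 to 785913 in KO libraries, and the part of these markers in this difference was not tested.

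*AXIN1* in HT29 had 2629, 2848, 2394 and 2865 in WT libraries and 2329, 2345, 2118 and 1713 in KO libraries. The KO libraries were all lower, although KO 28B and WT 40A differed by little. Its log2 fold change of −0.34 (standard error 0.15, adjusted p = 0.312) became −0.24 (standard error 0.12, adjusted p = 0.352) without 38B. HT29 KO libraries were wholly above WT for 1 member and wholly below for 1, against 8.31% and 4.71% of all tested genes. *BTRC* had 428, 345, 466 and 467 in WT, and 589, 594, 580 and 406 in KO libraries, the last in 38B. Without that library its KO libraries were also all above WT, at a log2 fold change of 0.47 (standard error 0.16, adjusted p = 0.178), against 0.34 (standard error 0.19, adjusted p = 0.420) with it.

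The values of *BCL9L* and *BCL9* in HT29 turned on 38B. *BCL9L* had 2313 and 1482 in WT 11, 3381 and 3363 in WT 40, 2490 and 3198 in KO 28, 2126 in KO 38A and 250 in KO 38B. Apart from 38B, KO values fell within the WT range. The log2 fold change of −0.80 (standard error 0.74, adjusted p = 0.613) was 0.04 (standard error 0.30, adjusted p = 0.965) without it. *BCL9* had 579 to 713 in WT libraries, 499, 536 and 681 in KO 28A, 28B and 38A, and 209 in 38B. Its log2 fold change went from −0.54 to −0.19 without 38B. For *PYGO2* it was 0.12 (standard error 0.15) with 38B and 0.18 (standard error 0.14) without it. The KO clones of HT29 differed in *GSK3A*, which had 3067 and 2937 in KO 28 and 1958 and 1325 in KO 38, on either side of the WT range of 2026 to 2622. The median log2 fold change over the members was −0.18, against 0.03 over all genes. Without 38B these medians were 0.05 and 0.02.

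The KO effects were then compared between lines in a fit over all 24 libraries. The difference of the log2 fold changes was called for 0 members between HT29 and HCT116, 2 between HT29 and SW480 and 3 between HCT116 and SW480. Among all 18609 genes tested, 7.25%, 15.8% and 13.2% were called in these comparisons. The comparisons share libraries. The effect on *CTNNBIP1* was larger in SW480 than in HT29, by 1.41 (standard error 0.28, adjusted p = 0.000919), and larger than in HCT116, by 1.55 (standard error 0.28, adjusted p = 0.000422). Between HT29 and HCT116 its difference was −0.15 (standard error 0.28, adjusted p = 0.816). With rounds averaged per clone, where an arm has 2 values, limma called 0 members in each of the 3 comparisons. Of 18666 tested genes, it called 98, 804 and 640. An unadjusted p under 0.05 was given by 1, 3 and 4 members and by 1914, 3035 and 2661 genes. Both calls of *CTNNBIP1* were lost there (adjusted p = 0.0811 and 0.0664) and were made in the other 33 of 34 alternatives.

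The effect on *BCL9* differed between HT29 and SW480 by 1.15 (standard error 0.32, adjusted p = 0.0145), and by 0.79 (standard error 0.18, adjusted p = 0.00338) without KO 38B. This call was lost in 2 of 34 alternatives, with rounds averaged per clone (adjusted p = 0.0551) and with the clone as a random effect (adjusted p = 0.162). Between HCT116 and SW480 it differed by 0.94 (standard error 0.32), where the adjusted p of 0.0535 became 0.000502 without 38B and was also under the threshold without 38A. *BCL9L* differed between HT29 and SW480 by 2.03 (standard error 0.71, adjusted p = 0.0572), and by 1.20 (standard error 0.35, adjusted p = 0.0212) without 38B. This difference was also called without HT29 KO 28A, 28B, 38A or WT 11B. Between HCT116 and SW480 the difference for *BCL9L* was 0.71 (standard error 0.71, adjusted p = 0.604), and without 38B 0.71 (standard error 0.34, adjusted p = 0.165). The spread of a gene is estimated over all 24 libraries of this fit, so an HT29 library also enters the comparison of HCT116 and SW480.

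The effect on *AXIN1* was lower in SW480 than in HCT116, by −0.60 (standard error 0.15, adjusted p = 0.00967). This call was lost in 3 of 34 alternatives, with rounds averaged per clone (adjusted p = 0.222), with the clone as a random effect (adjusted p = 0.0952) and without the filter (adjusted p = 0.0540). Between HT29 and SW480 it differed by −0.30 (adjusted p = 0.209), and by −0.40 (adjusted p = 0.0440) without 38B. The effect on *BTRC* was higher in SW480 than in HCT116 by 0.59 (standard error 0.19, adjusted p = 0.0379), a call that was lost in 17 of 34 alternatives, 12 of them omitting a single library. Between HT29 and HCT116 the effect on *BTRC* differed by −0.56 (adjusted p = 0.0730), and by −0.69 (adjusted p = 0.00875) without 38B. Without that library, 1, 4 and 4 members were called in the 3 comparisons, and 1478, 2986 and 3094 of all 18514 tested genes. For *APC* and the kinases no call was made, and the standard errors of 0.19 to 0.28 leave differences of that size unresolved. The count at an unadjusted p under 0.05 between HT29 and HCT116 was 1 member, and 3915 of 18609 tested genes. edgeR called 0 members and 1191 genes in all there, and DESeq2 1 member and 1870 genes.

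**Figure D2:**
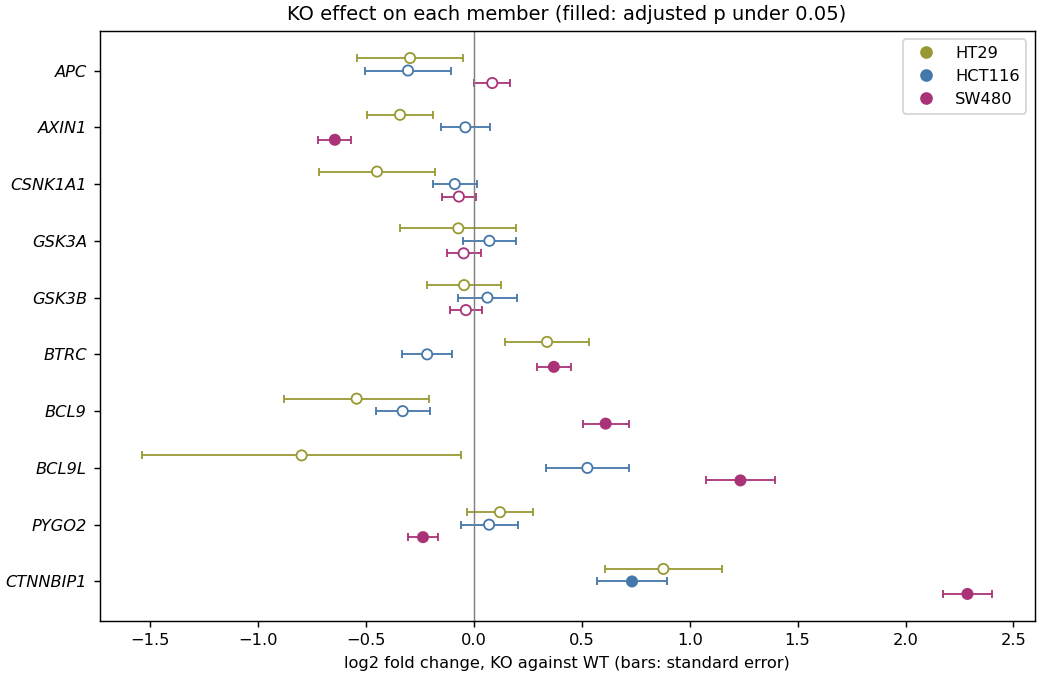
Log2 fold change, KO against WT, of each member in each line from limma, with bars for the standard error and filled points for an adjusted p under 0.05. SW480 has 6 filled points, from −0.65 for *AXIN1* to 2.29 for *CTNNBIP1*, HCT116 has 1 and HT29 none, where the bar of *BCL9L* is the longest.

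Both pairs of paralogs were also set against each other within libraries. Per kb of exon, *BCL9L* over *BCL9* was 1.12 to 1.75 in HCT116 WT and 2.12 to 2.79 in HCT116 KO libraries. In SW480 this ratio was 2.69 to 3.35 in WT and 3.98 to 5.08 in KO libraries, and in HT29 it was 1.50 to 3.11 and 0.70 to 3.50. The genotypes thus did not overlap in HCT116 and SW480 and overlapped in HT29. *GSK3A* over *GSK3B* was 1.60 to 1.91 in SW480 WT and 1.57 to 1.88 in SW480 KO libraries. This ratio was 2.18 to 3.54 in HCT116 WT and 2.18 to 3.04 in HT29 WT libraries, above all SW480 WT libraries. These ratios were chosen after their values were seen and were not tested.

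WT levels set the starting point in each line. Per kb of annotated exon, *CSNK1A1* was the most abundant member, with 478.6 to 769.9 and a median of 633.9 in the 12 WT libraries, above every other member in every library. It was followed by medians of 290.3 for *GSK3A*, 280.0 for *PYGO2*, 187.9 for *BCL9L*, 161.3 for *AXIN1*, 150.4 for *GSK3B*, 102.2 for *BCL9*, 99.0 for *APC*, 82.4 for *BTRC* and 63.9 for *CTNNBIP1*. From *GSK3A* downward, the range of each gene overlapped that of the next. An annotated noncoding gene on the same strand shares 49.3% of the exon bases of *CSNK1A1* and was counted at 119.3 to 299.1, so reads of *CSNK1A1* may be missing where they overlap. Its processed copies and *CSNK1A1L* had at most 11.2 in any library. Reads of *BCL9L* may likewise be missing over the 36.3% of its exon bases shared with *CXCR5*. The same holds for *CTNNBIP1* over the 12.7% shared with a noncoding gene on the other strand.

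Among WT clones, HT29 differed from HCT116 in 7 members and from SW480 in 5, and HCT116 differed from SW480 in 5. Of 17205 genes tested, 65.4%, 66.8% and 67.5% were called, so the members were called at about the rate of other genes. *AXIN1* was highest in HT29, with 2684 ± 221 normalized counts (SD, n = 4), against 1221 ± 59.5 in SW480 and 792 ± 88.8 in HCT116. The libraries of the 3 lines did not overlap. The log2 difference was −1.76 from HT29 to HCT116 (standard error 0.10, adjusted p = 3.9e-09), −1.13 from HT29 to SW480 (0.10, adjusted p = 3.0e-07) and 0.63 from HCT116 to SW480 (0.10, adjusted p = 8.8e-05). After the fall in SW480, its KO libraries at 743 to 866 stood in the range of HCT116 WT libraries, at 677 to 883.

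*BTRC* was highest in HCT116, with 1299 ± 114, against 539 ± 27.3 in SW480 and 427 ± 57.6 in HT29. All HCT116 WT libraries were above all others. HT29 and SW480 differed by 0.35 (standard error 0.12, adjusted p = 0.0175), a call lost with rounds averaged per clone and with the clone as a random effect. *CTNNBIP1* was also highest in HCT116, with 397 ± 85.2, and by 1.17 over HT29 (standard error 0.20, adjusted p = 0.000153). HT29 and SW480, at 177 ± 42.1 and 193.0 ± 27.3, had overlapping libraries (0.14, standard error 0.20, adjusted p = 0.547). The SW480 KO libraries, at 880 to 1045, were above every other library of the series for this gene.

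*BCL9* was highest in HCT116 at 797 ± 60.4, next in HT29 at 646 ± 55.4 and lowest in SW480 at 381 ± 16.4. SW480 was below HT29 by −0.76 (standard error 0.10, adjusted p = 1.5e-05) and below HCT116 by −1.06 (standard error 0.10, adjusted p = 6.0e-07). HT29 and HCT116 differed by 0.30 (standard error 0.10, adjusted p = 0.0175), which was lost without HCT116 WT 6A and in 3 other alternatives. *GSK3A* and *PYGO2* were highest in HT29, at 2325 ± 269 and 1431 ± 91.3, with called differences from −0.46 to −0.61 to the other lines, between which no difference was called (adjusted p = 0.408 and 0.295). *GSK3B* was lower in HCT116, at 2024 ± 257, than in HT29 at 2700 ± 347 and SW480 at 2807 ± 99.2 (adjusted p = 0.00599 and 0.00219), and the first of these was lost with rounds averaged per clone (adjusted p = 0.0502). *APC*, *CSNK1A1* and *BCL9L* gave no call between lines. Without HT29 WT 11B, *BCL9L* was called between HT29 and each other line, *APC* between HCT116 and each other line, and *CSNK1A1* between HCT116 and SW480. Without HT29 WT 40B, *CSNK1A1* was called between SW480 and each other line.

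**Figure D3:**
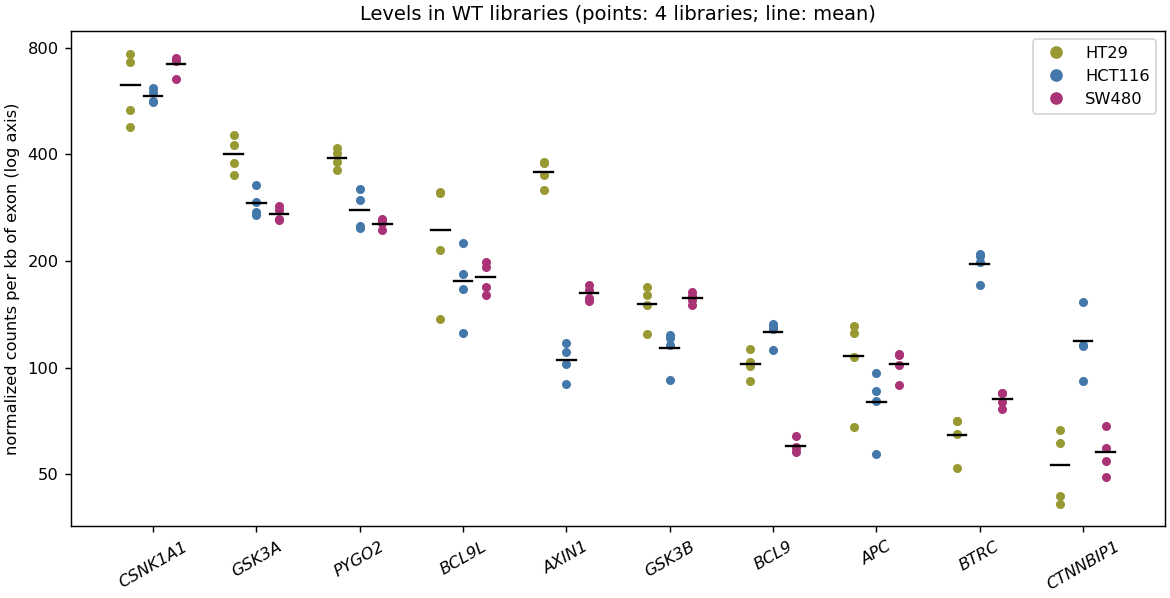
Normalized counts per kb of annotated exon (log axis) in the 12 WT libraries, by member and line, ordered by the median, with points for libraries and lines for the mean of 4. *CSNK1A1* is the highest member in every line, *AXIN1* is set apart by HT29 at a mean of 356, and *BTRC* by HCT116 at a mean of 196.

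The rest of the pathway was read from 5 lists of 45 genes. In HT29, 1 of the 44 tested genes rose and 1 fell, against 2.08% and 0.476% of all tested genes. In HCT116, 2 of 44 rose and 6 fell, against 8.05% and 5.93%. In SW480, 9 of 45 rose and 15 fell, against 26.1% and 22.1%. The median log2 fold changes over these genes were −0.13, −0.06 and −0.09, against 0.03, −0.01 and −0.0042 over all tested genes, and nothing particular to the lists is read from these counts. In SW480, with the same 26.1% and 22.1% of all genes as background, the 15 other coactivators counted 1 that rose and 6 that fell, the 13 other subunits of the destruction complex 3 and 4, the 10 regulators of the complex 3 and 4, the 4 genes of the ubiquitin ligase 1 and 1, and the 3 nuclear antagonists 1 and 0.

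*AXIN2*, the paralog of *AXIN1* and itself a target gene of β-CATENIN, fell in all 3 lines. It had 11049 to 12213 normalized counts in SW480 WT and 356 to 591 in KO libraries, 266 to 531 and 6.66 to 15.0 in HCT116, and 590 to 779 and 15.1 to 158 in HT29. No KO library reached a WT library of its line. The log2 fold changes were −4.74 (adjusted p = 6.7e-09), −5.25 (adjusted p = 1.2e-06) and −3.70 (adjusted p = 0.0321), whereas *AXIN1* gave −0.65, −0.04 and −0.34. The other named fall in SW480 was *CTR9*, a subunit of the PAF1 complex that takes part in transcription elongation, from 8348 ± 488 to 4115 ± 258 (−1.02, adjusted p = 1.2e-06). *CTR9* fell in HCT116 as well (−0.87, adjusted p = 0.00107), and in HT29 it was at −0.54 (adjusted p = 0.0759). The other named fall in HCT116 was *PYGO1*, the paralog of *PYGO2*, from 28.1 ± 5.12 to 10.7 ± 3.26 (−1.34, adjusted p = 0.0153).

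The co-receptor gene *LRP5* rose in SW480, from 2619 ± 236 to 3662 ± 207 (0.49, adjusted p = 0.000546), and in HCT116, from 1739 ± 55.2 to 2404 ± 353 (0.46, adjusted p = 0.0230). In HT29 its value was −0.13 (adjusted p = 0.859). *PPP2R5B*, a regulatory subunit of the phosphatase PP2A, rose in SW480 (0.62, adjusted p = 0.000191). *DVL1*, which encodes a Dishevelled protein that relays the WNT signal to the complex, rose in HCT116 from 3787 ± 400.1 to 5961 ± 103 (0.66, adjusted p = 0.00108). *FRAT1*, which encodes a binding protein of GSK3, rose in HT29 from 43.1 ± 13.9 to 113 ± 23.2 (1.39, adjusted p = 0.0436) and fell in SW480 (−0.97, adjusted p = 0.00670).

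Across the 12 clones, with each line centred on its own mean, the gene most like *CTNNBIP1* among 10797 others was *IL1RAP* (Pearson's r = 0.98 over 12 clone means of log2 values), that most like *AXIN1* was *BRD7* (0.98) and that most like *BCL9L* was *SAMD4B* (0.97). For *BCL9* it was *VPS8* (0.98), for *PYGO2* *RETREG2* (0.92), for *BTRC* *DDX60L* (0.94), for *APC* *IQSEC1* (0.96), for *CSNK1A1* *MFAP3* (0.98), for *GSK3A* *SLC10A3* (0.98) and for *GSK3B* *ECT2* (0.89). Among the members themselves the most opposed pair was *CTNNBIP1* and *AXIN1* (−0.91) and the most alike was *CSNK1A1* and *APC* (0.77). These values describe 12 clones that share lines. The genotype difference in SW480 enters those of the members called there, whereas *APC*, *CSNK1A1*, *GSK3A* and *GSK3B* were not called in SW480. Library HT29 KO 38B is part of a clone mean behind each value. The part of either in these values was not tested.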

How the data were processed

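Samples were grouped by the line, genotype, clone and round in their titles. RNA was extracted from the clones with the peqGOLD Total RNA kit, and libraries were made with the TruSeq RNA Sample Prep Kit v2, which does not mark strand. According to the submitters' processing notes, reads were aligned to GRCh37 with STAR 2.7.5b and counted with featureCounts 2.0.1. The values the authors deposited are signal, namely gene counts divided by a DESeq2 size factor per library. Dividing by the value of 1 read gave whole reads for 100% of values (tolerance 0.001). The tables of DEGs hold the authors' fold changes and p-values and were not used.

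Values were tested as log2(value + 1) with limma 3.58.1, mean-variance trend and robust variances, for genes with at least 10 in at least 4 libraries of the fit, with Benjamini-Hochberg adjustment over all of them and a threshold of 0.05. KO and WT were compared within lines (8 libraries), WT lines in a fit of 12 libraries and KO effects in a fit of 24. Fold changes of low genes are understated on this scale. Alternatives were edgeR 4.0.16, DESeq2 1.42.0, TMM scaling with log2 CPM, pseudocounts of 0.1 and 5, other filters, clone means or a clone effect, the round as a block, and each library or clone left out.

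Rounds are described as independent. The B minus A differences of clone pairs correlated above 0.1 in 6 of 6 pairs of HCT116 (0.182 to 0.374). This held in 2 of 6 pairs of HT29 (0.224 and 0.424) and 1 of 6 of SW480. Rounds were thus taken as pairing libraries in HCT116 only, on the data and not by design. Coordinates and exon lengths are from GENCODE v44lift37 on GRCh37. All members were named, with *CTNNB1*, per line the 2 called genes of the lists with the largest rise and fall, and for each member the most similar gene. Members and lists were chosen with earlier results of these data known. Scripts ran under R 4.3.3 and Python 3.11.15, with pandas 2.3.3 for tables. The result of 1 leukocyte marker is not reported here.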

Additional observations from a re-analysis of the deposited data

Results flagged for a closer look

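The KO effect on *CTNNBIP1* differed between HT29 and SW480 by 1.41 and between HCT116 and SW480 by 1.55 on the log2 scale, and that on *BCL9* differed between HT29 and SW480 by 1.15. Between HCT116 and SW480, the effect on *AXIN1* differed by −0.60 and that on *BTRC* by 0.59. Each of these was found by the test of the difference itself (limma, 24 libraries).

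In 2 of 60 groups of 4 libraries, the extreme library of a member was farther from the others than Dixon's critical value allows, and chance alone marks about 1 group in 20. *BTRC* was 406 in HT29 KO 38B, below 580 to 594 in the other KO libraries of HT29. *CSNK1A1* was 5539 in SW480 WT 5A, below its 3 companions, and the SW480 ranges of this gene overlapped between genotypes.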

How the results depend on the processing

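Each value was recomputed under every alternative, and no member called in either fit changed sign. In 76 of 2340 alternative values, a member called in neither fit changed sign. The value went furthest for *BCL9L* in HT29, from −0.80 to 0.04 without KO 38B and to 0.18 without both libraries of KO 38. With rounds averaged per clone, 4 members were called in SW480 against 6 in the main fit, with 3884 of 16539 tested genes called. The clone as a random effect gave 5 there, with 5615 of 16325. In HT29, 0 of 15109 tested genes were called on clone means. For KO against WT, DESeq2 called 1 member in HT29 and 2 in HCT116. No filter gave 2 in HCT116, with 2609 of 39890 tested genes called. Rounds averaged per clone, leaving out KO 44 and leaving out WT 6 each gave 0 there. In these fits 407 of 15546, 1226 of 14936 and 963 of 15029 tested genes were called. With the round as a replicate block the count in HCT116 was 2, with 2457 of 15404 tested genes called. The block moved no other count of members by over 1.5 times. With an absolute log2 fold change over 1 required as well, 0 members were called in HCT116 and 2 in SW480. In these lines 779 of 15404 and 2852 of 16325 tested genes were called. Between WT HT29 and HCT116, HT29 and SW480, and HCT116 and SW480 the members called were 3, 1 and 3. Of 17205 tested genes, 6447, 6897 and 6922 were called there. For differences of KO effects, DESeq2 called 1 between HT29 and HCT116. Clone means gave 0 between HT29 and SW480 and 0 between HCT116 and SW480. The clone as a random effect gave 1 and 1, with 1519 and 1207 of 18609 tested genes called. No filter gave 1 between HCT116 and SW480, with 2187 of 43354 tested genes called.

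Leaving out single libraries gave 0 to 1 members between HT29 and HCT116 and 2 to 4 between HT29 and SW480, with the upper values without HT29 KO 38B, and 2 to 4 between HCT116 and SW480. There *BTRC* lost its call without HCT116 KO 44A or 47A, WT 4B, 6A or 6B, or SW480 KO 17A, 17B or 21B, or WT 4A, 4B, 5A or 5B. Members had at least 138 normalized counts in every library, and the spread between 2 clones per arm limits these comparisons.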
